A study of Homo sapiens with 8 samples.

Results

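Transcripts of 10 genes that restrain or are switched on by ERK signalling were followed in Caco-2 monolayers co-cultured with L. plantarum MB452. The genes were those whose symbol in the platform annotation was DUSP1, DUSP4, DUSP5, DUSP6, SPRY1, SPRY2, SPRY4, SPRED1, SPRED2 or IER3. They were found on 13 of the 44290 features of the array, with 1 feature for each of 7 genes and 2 features each for DUSP1, SPRED1 and SPRED2. No feature with several symbols named any of them. All 13 had a value on every slide and were among the 42142 features tested.

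ERK is the last kinase of a cascade in which growth factor receptors switch on RAS, RAF and MEK in turn. Active ERK induces, within the hour, genes that drive the response and genes that end it. The second kind includes dual-specificity phosphatases of the DUSP family, which remove both activating phosphates from the kinase itself, and the Sprouty and SPRED proteins, which act further up, between the receptor, RAS and RAF. In the intestinal epithelium this pathway relays signals from EGF receptors to proliferation, migration and repair.

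Caco-2 is a human colorectal adenocarcinoma line whose monolayers differentiate into enterocyte-like cells. Monolayers aged 18 days were held for 10 h in control medium or with MB452. The bacteria were suspended to an optical density of 0.9 in M199 medium with non-essential amino acids. For its electrical resistance assay the study gives the control as this same medium, fresh and without bacteria. RNA of 3 wells was combined into 1 pool, and there were 2 control pools and 2 MB452 pools, A and B in each group (n = 2). All pools came from the same cell line and a single experiment, so the spread between them measures wells of that experiment and may be technical. Each pool was labelled with Cy5 and co-hybridised on 1 slide with a Cy3-labelled reference of RNA from all wells, and each slide was scanned at a high and at a low voltage.

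A value is the log2 ratio of a pool over the reference, with the median of each scan set to 0 and the 2 scans of a slide averaged. The fold change is MB452 minus control on this log2 scale. A ratio gives no transcript level, so levels of different genes were not compared, and the detection of a transcript above background was not known. A gene was called when its fold change exceeded 1.2 (0.26 on the log2 scale) with an unadjusted moderated p under 0.05, the threshold of the study. The deposited values carry no statement of their log base, which was taken as 2, the base limma uses. With base 2 the linear ratios of both groups summed to a median of 2.04 over the 7 features that differed most between the groups, against 2.87 with base 10, where a reference mixed equally from both would give 2, the number of groups. Base e, with 2.12, could not be told apart from base 2 in this way, so each fold and each call depends on the base taken.

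Across all features the 2 control pools correlated at r = 0.40 and the MB452 pools at r = 0.67. Control pool B was the least like the others, with r between 0.38 and 0.45. Control pool A correlated at r = 0.61 with MB452 pool A and 0.50 with MB452 pool B, more than with control pool B. Every pool carried Cy5 against the same Cy3 reference, so these correlations do not measure the likeness of the pools alone. The most repeated value of each scan, taken to mark saturated spots, was found on 310 to 1534 features of each scan, and 0 of the 13 ERK feedback features held it in any scan. Of 12 intestinal epithelial markers and 12 markers of blood, endothelial and stromal cells, none passed the threshold in either direction. However, 6 of the intestinal markers held the saturated value at least once, and CDH1 and EPCAM held nothing else, so that these 2 carry no measurement. Their list had a median log2 fold change of -0.044, or -0.0016 over 10 genes with saturated values left out, when FABP1 passed as lower. The other markers held none and had a median of -0.073. With a pool left out some markers of both lists passed, in fits that leave a group with a single pool. Since ratios hold no levels, the identity of the cells could not be checked from them.

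Higher ratios with MB452 were found for 9 of the 10 genes, against 45.4% of all genes, and 3 of them passed the threshold, DUSP5, SPRY2 and SPRY4. All 3 were higher, with fold changes between 1.2001 and 1.253, and none of the 10 was lower past the threshold. Among all 17969 genes tested, 1.04% passed as higher. The median log2 fold change was 0.14 over the 10 genes and -0.0093 over all genes. The 10 genes were chosen with earlier results of these data known, so their counts and median were not tested against all genes. The median ratio of the 10 genes was -0.10 and -0.017 in control pools A and B, and 0.077 and 0.15 in MB452 pools A and B. None of the 10 reached an adjusted p under 0.05 in limma, with the lowest adjusted p at 0.64 for SPRY4, while 4 of the 10 had an unadjusted p under 0.05. Over all genes 0 reached that adjusted level and 1166 had an unadjusted p under 0.05.

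**Figure D1:**
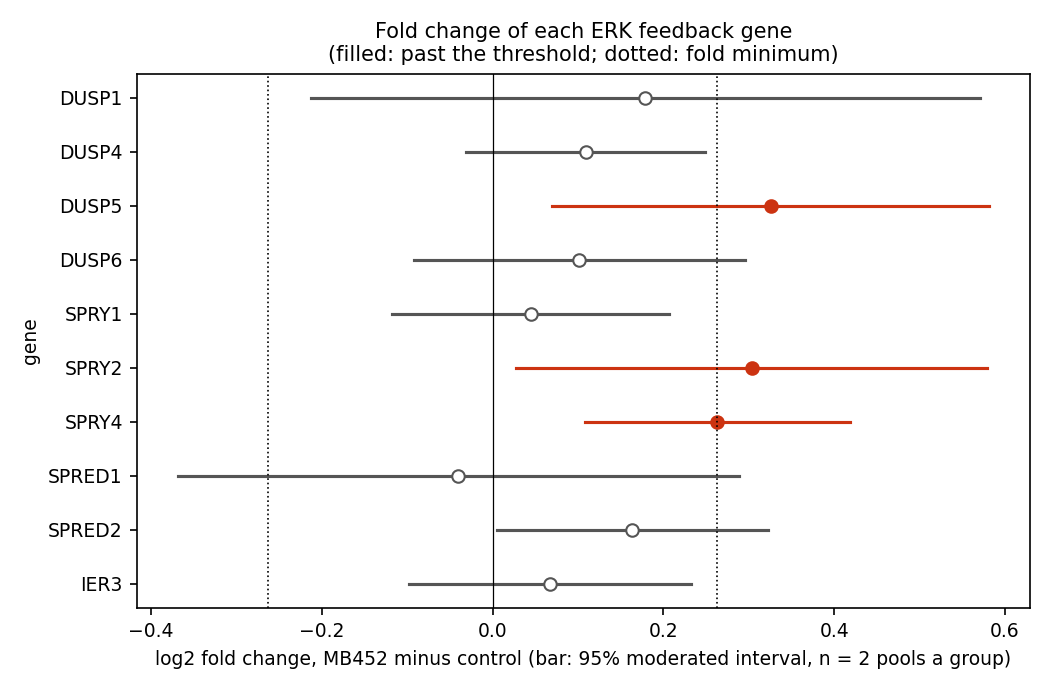
Log2 fold change (x axis, MB452 minus control) of each of the 10 genes (y axis), with bars for the 95% moderated interval from limma over 2 pools a group and dotted lines at the fold minimum of 1.2. The filled points of DUSP5, SPRY2 and SPRY4 passed the threshold, SPRY4 lay on the dotted line, and the SPRED1 point lay below 0.

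By feature, both MB452 pools lay above both control pools in 8 of 13 features by the high scan, in 7 by the low scan and in 5 by both. These 5 were the single features of DUSP4, DUSP5, SPRY2 and SPRY4 and 1 feature of SPRED1. This order was found in 17.2% of all features by the high scan, in 18.1% by the low scan and, of those with a value in every scan, in 8.24% by both. Among the 13 features 3 passed the threshold, against 1.3% of all features that passed as higher. After averaging over scans and features, 5 of the 10 genes had both MB452 pools above both control pools, where 17.6% of all genes did.

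**Figure D2:**
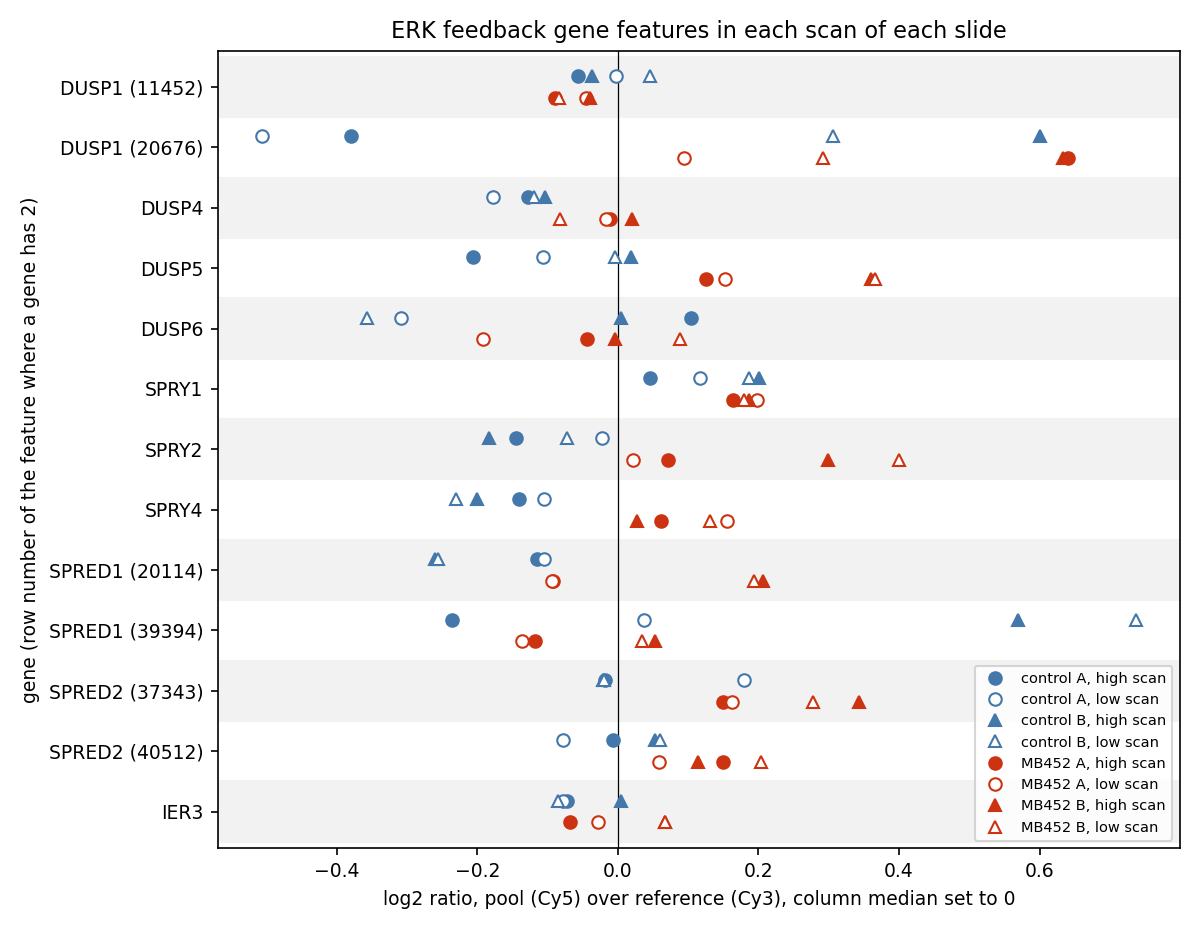
Log2 ratio of pool over reference (x axis) for each of the 13 features (y axis, with the row number in the deposited table where a gene has 2 features), in blue for control and red for MB452 pools, with circles for pool A, triangles for pool B, filled marks for the high scan and open marks for the low scan. Red marks lie to the right of all blue marks for DUSP4, DUSP5, SPRY2, SPRY4 and feature 20114 of SPRED1. The second feature each of DUSP1 and SPRED1 spreads widely between the control pools.

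Among the phosphatases, DUSP5, a nuclear enzyme that acts on ERK and hardly on other MAP kinases, had the largest fold change of the 10 genes. Its ratios were -0.16 and 0.0067 in control pools A and B, and 0.14 and 0.36 in MB452 pools A and B. The groups did not overlap, although the gap between control B and MB452 A was smaller than the distance between the MB452 pools. The means were -0.075 ± 0.12 (SD, n = 2) in control and 0.25 ± 0.16 (SD, n = 2) in MB452 cells, and the log2 fold change was 0.33 (standard error, SE, 0.10, 95% interval 0.070 to 0.58, adjusted p = 0.71 in limma). Both scans gave nearly the same difference, 0.34 for high and 0.31 for low. Without control pool A the log2 fold change was 0.24 and without MB452 pool B it was 0.21, and neither passed the threshold.

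DUSP6, the cytoplasmic ERK phosphatase that is often read as a gauge of ERK output, did not pass. Its ratios were -0.10 and -0.18 in the control pools and -0.12 and 0.042 in the MB452 pools, which overlapped, and the log2 fold change was 0.10 (SE 0.076, adjusted p = 0.82 in limma). The 2 scans went in opposite directions, which no other of the 13 features did. In the low scan the control ratios of -0.31 and -0.36 lay below the MB452 ratios of -0.19 and 0.089, a difference of 0.28. In the high scan the control ratios of 0.10 and 0.0037 lay above the MB452 ratios of -0.044 and -0.0043, a difference of -0.078. No value in either scan equalled the repeated value of saturated spots. Intensities were not used here, so what set the scans of this feature apart was not tested. With the low scan alone DUSP6 passed the threshold. On the mean of the scans the log2 fold change was 0.021 without MB452 pool B and 0.18 without MB452 pool A.

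DUSP4, a nuclear phosphatase of ERK and other MAP kinases, had small and even differences. The control ratios were -0.15 and -0.11 and the MB452 ratios -0.015 and -0.032, so the groups did not overlap. The log2 fold change of 0.11 (SE 0.055, 95% interval -0.031 to 0.25, adjusted p = 0.81 in limma) was below the fold minimum. It was 0.12 in the high and 0.098 in the low scan.

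DUSP1, a phosphatase that prefers p38 and JNK over ERK and is induced by stress, glucocorticoids and growth factors, had 2 features that disagreed. The feature annotated to its RefSeq transcript had ratios of -0.44 and 0.45 in control pools A and B and of 0.37 and 0.46 in MB452 pools A and B. Only control pool A was low, at -0.38 in the high and -0.51 in the low scan, whereas control pool B was within the range of the MB452 pools on the mean of the scans. The log2 fold change of that feature was 0.41 (SE 0.29, 0.53 in the high and 0.29 in the low scan, adjusted p = 0.87 in limma). The other feature, annotated to an expressed sequence tag, had ratios of -0.030 and 0.0041 in the control and -0.068 and -0.062 in the MB452 pools and a log2 fold change of -0.052 (SE 0.060, -0.018 in the high and -0.086 in the low scan). For the mean of both features the log2 fold change was 0.18 (SE 0.15, adjusted p = 0.83 in limma). It was 0.41 and passed the threshold without control pool B, and was -0.054 without control pool A, so its sign and its call both rested on single control pools.

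SPRY2 is a Sprouty protein of epithelia that is phosphorylated after receptor activation and dampens the signal to RAS and RAF. Its ratios were -0.084 and -0.13 in the control pools and 0.046 and 0.35 in MB452 pools A and B. The controls lay close together, while the MB452 pools were far apart with pool A only a little above the controls. The means were -0.11 ± 0.031 (SD, n = 2) and 0.20 ± 0.21 (SD, n = 2), and the log2 fold change was 0.30 (SE 0.11, 95% interval 0.028 to 0.58, adjusted p = 0.74 in limma). The groups were separate in both scans, and their means differed by 0.35 in the high and 0.26 in the low scan. Without MB452 pool B the log2 fold change was 0.15 and without control pool B 0.28, and SPRY2 did not pass in either case or in the low scan alone.

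SPRY4, another Sprouty gene widely induced by receptor tyrosine kinases, had the lowest p of the 10 genes. Its ratios were -0.12 and -0.22 in the control pools and 0.11 and 0.079 in the MB452 pools. Both pairs were tight and lay on either side of 0. The means were -0.17 ± 0.065 (SD, n = 2) and 0.094 ± 0.020 (SD, n = 2), with a log2 fold change of 0.26 (SE 0.061, 95% interval 0.11 to 0.42, adjusted p = 0.64 in limma). With the base taken as 2, its fold of 1.2001 exceeded the minimum of 1.2 by only the fourth decimal, so that small shifts ended the call. The high scan gave 0.21 and the low scan 0.31. SPRY4 was not called with the high scan alone, nor when control pool B (0.22) or MB452 pool A (0.25) was left out.

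SPRY1, the third Sprouty gene, did not pass. Its ratios of 0.081 and 0.19 in the control pools enclosed those of 0.18 and 0.18 in the MB452 pools, and the log2 fold change was 0.045 (SE 0.064, 95% interval -0.12 to 0.21, adjusted p = 0.89 in limma). Without control pool A it was -0.012. The differences of SPRY2 or SPRY4 from SPRY1 were not tested.

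As the Sprouty genes that passed, SPRY2 and SPRY4 are shown with 1 promoter window each, of 250 bases before to 50 bases after a RefSeq start site of GRCh38.p14. These are the most upstream window of SPRY2 at chr13:80341077-80341376 (minus strand) and the window of SPRY4 at chr5:142324198-142324497 (minus strand). DUSP1 at chr5:172771146-172771445 (minus strand) is shown beside them as the window with a full cAMP response element. Capitals mark matches on either strand to the ETS core CCGGAA, the AP-1 site TGANTCA, the cAMP response element TGACGTCA or its partial form TGACG, which also lies within the full element.
SPRY2: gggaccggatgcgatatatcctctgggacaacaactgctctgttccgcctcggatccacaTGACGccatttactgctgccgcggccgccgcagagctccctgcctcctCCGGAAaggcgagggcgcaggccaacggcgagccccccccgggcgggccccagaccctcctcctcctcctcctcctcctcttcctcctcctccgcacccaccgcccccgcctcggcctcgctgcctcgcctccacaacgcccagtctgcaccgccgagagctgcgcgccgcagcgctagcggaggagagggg
SPRY4: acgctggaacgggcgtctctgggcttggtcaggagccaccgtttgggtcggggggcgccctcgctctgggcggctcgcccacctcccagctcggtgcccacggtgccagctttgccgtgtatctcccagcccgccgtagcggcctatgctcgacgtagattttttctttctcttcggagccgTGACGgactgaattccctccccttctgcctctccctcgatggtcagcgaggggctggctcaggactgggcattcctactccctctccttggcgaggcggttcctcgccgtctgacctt
DUSP1: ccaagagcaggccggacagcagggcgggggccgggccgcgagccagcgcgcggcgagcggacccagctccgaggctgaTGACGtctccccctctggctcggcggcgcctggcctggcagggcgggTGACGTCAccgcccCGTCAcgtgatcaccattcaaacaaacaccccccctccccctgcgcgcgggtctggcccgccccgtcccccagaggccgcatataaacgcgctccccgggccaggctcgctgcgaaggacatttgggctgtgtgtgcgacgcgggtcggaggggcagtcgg

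Counted from the start site, the partial element of SPRY2 began at base -190 and its ETS core at -142, and the partial element of SPRY4 began at -68. The other windows of SPRY2, which are not shown, held no match to any of the motifs. DUSP1 held the full element at -125 and 4 matches to the partial form, 2 of them inside the full one. Over 11 windows of 7 of the genes (DUSP1, DUSP6, SPRY1, SPRY2, SPRY4, SPRED1 and SPRED2), 4 held the partial element, 2 the ETS core, 1 the AP-1 site and 1 the full element. Of 35116 windows of 300 bases, 24.6% held the partial element, 17.2% the ETS core, 7.71% the AP-1 site and 1.85% the full element. The CArG box, the serum response element bound by SRF, was in 1.29% of them and in 0 of the 11. These matches are letters in short windows and were not read as bound sites.

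SPRED1 and SPRED2 bring neurofibromin, which switches RAS off, to the membrane. The features of SPRED1 had fold changes of opposite sign. Feature 20114 had ratios of -0.11 and -0.26 in the control pools and -0.093 and 0.20 in the MB452 pools, separate in both scans although MB452 A lay barely above control A, and a log2 fold change of 0.24 (SE 0.12, adjusted p = 0.87 in limma). Feature 39394 had ratios of -0.10 and 0.65 in control pools A and B and of -0.13 and 0.044 in the MB452 pools, with a log2 fold change of -0.32 (SE 0.25). Its negative sign rested on control pool B, which was high in both scans (0.57 and 0.74). Both are annotated to the same transcript. The mean of the 2 features had a log2 fold change of -0.040 (SE 0.13, adjusted p = 0.96 in limma), the only negative value among the 10 genes, and it was 0.11 without control pool B, 0.023 with the high scan alone and 0.028 under quantile scaling.

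The features of SPRED2 were both higher with MB452. Feature 37343 had ratios of 0.080 and -0.021 in the control and 0.16 and 0.31 in the MB452 pools, with a log2 fold change of 0.20 (SE 0.082, 0.27 by the high and 0.14 by the low scan). Feature 40512 had ratios of -0.042 and 0.056 in the control and 0.10 and 0.16 in the MB452 pools, with a log2 fold change of 0.12 (SE 0.068, 0.11 by the high and 0.14 by the low scan). In both features the groups were separate in the high scan and overlapped in the low scan. As a mean over features the control ratios were 0.019 and 0.018, and the MB452 ratios 0.13 and 0.23. The log2 fold change of 0.16 (SE 0.063, 95% interval 0.0054 to 0.32, adjusted p = 0.76 in limma) had an unadjusted p under 0.05 but stayed below the fold minimum.

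IER3 is an immediate early gene whose product is an ERK substrate known to hold back the removal of phosphate from ERK, so that it differs in role from the phosphatases and Sprouty proteins. Its ratios were -0.075 and -0.040 in the control pools and -0.048 and 0.067 in the MB452 pools. The groups overlapped, and the log2 fold change was 0.067 (SE 0.065, 95% interval -0.098 to 0.23, adjusted p = 0.84 in limma), with 0.034 in the high and 0.10 in the low scan. It was 0.0097 without MB452 pool B and 0.12 without MB452 pool A.

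**Figure D3:**
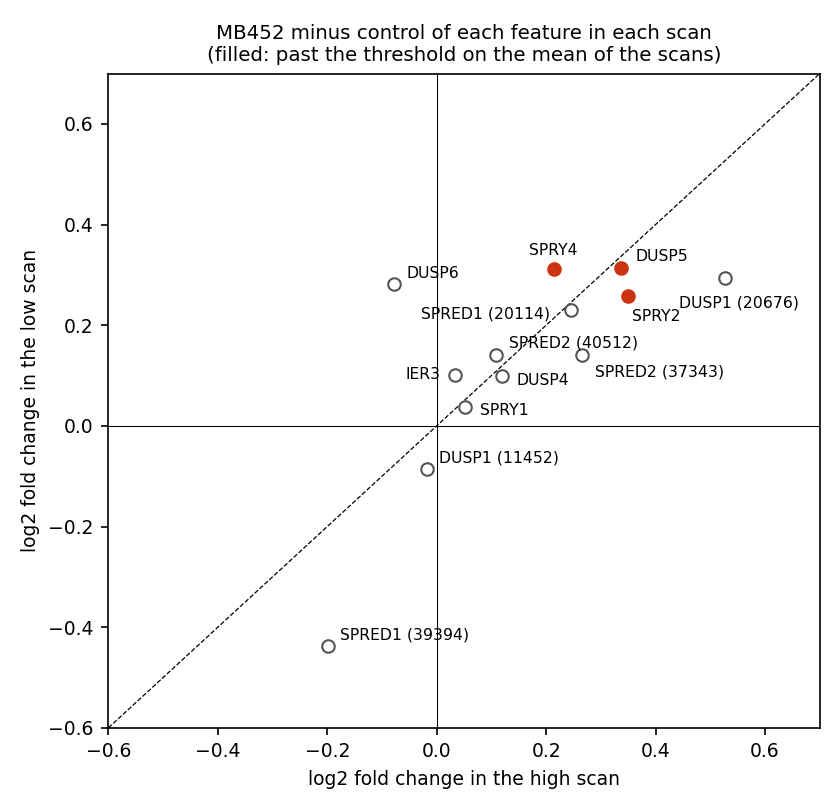
Log2 fold change, MB452 minus control, of each of the 13 features from the high scan (x axis) and from the low scan (y axis), with a dashed line where both are equal and the row number in brackets where a gene has 2 features. DUSP6 is the feature with opposite signs, and the filled points of DUSP5, SPRY2 and SPRY4 passed the threshold on the mean of the scans.

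Over the 13 features, the fold change of a scan was positive in 10 features in the high and 11 in the low scan. The largest gap between the scans was 0.36 for DUSP6, and gaps of 0.24 and 0.23 were found in feature 39394 of SPRED1 and the RefSeq feature of DUSP1. Those of DUSP5, DUSP4, SPRY1 and feature 20114 of SPRED1 were 0.022 or less. MB452 pool B had a higher ratio than MB452 pool A in 8 of the 10 genes, and lay above both control pools in 7 genes where MB452 pool A did so in 5. The shares of all genes with these orders were not counted, so whether they are particular to the 10 genes was not tested.

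Other genes of the pathway were counted in lists taken from general knowledge. These lists too were drawn up with earlier results of these data known, so their counts and medians were not tested. Past the threshold in either direction were 1.91% of all genes. Among 23 measured transcriptional targets of ERK outside the 10 genes, 2 rose, none fell and 21 did not pass, with 19 positive (45.4% among all genes) and a median log2 fold change of 0.055. EGR1, an immediate early transcription factor, had ratios of -0.98 and -0.79 in the control pools against 0.42 and 0.46 in the MB452 pools, a log2 fold change of 1.32 (SE 0.079, adjusted p = 0.18 in limma) that was the largest rise among all genes tested. ZFP36, which speeds the decay of AU-rich mRNAs, had ratios of -0.13 and 0.13 in control and 0.28 and 0.33 in MB452 pools, with a log2 fold change of 0.31 (SE 0.097, adjusted p = 0.71 in limma). The log2 fold changes of DUSP5, SPRY2 and SPRY4 lay between 0.26 and 0.33, near that of ZFP36 and far below that of EGR1. Without MB452 pool B, 1 of the 23 targets passed.

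Of 22 measured genes of the RAS, RAF, MEK and ERK cascade itself 0 passed in limma, and 0 had an unadjusted p under 0.05. Their median was -0.022, with 10 positive and 12 negative. MAPK3, which encodes ERK1, had a log2 fold change of 0.028 (SE 0.055, 95% interval -0.11 to 0.17). A list of other family members held 12 genes, of which 11 were measured. These were DUSP2, DUSP7, DUSP8, DUSP9, DUSP10, DUSP14, DUSP16, SPRY3, IER2, IER5 and IER5L. The IER genes share a name with IER3, and their kinship with it was not checked. Of the 11 genes 0 passed in limma and 0 had an unadjusted p under 0.05, with a median of 0.0093 and 6 positive values. The same count was 0 of 15 for the p38 and JNK cascade, with a median of 0.0011 and 1 gene at an unadjusted p under 0.05. Without control pool A, when the spread of the MB452 pools stood for both groups, 3 genes of the cascade, 3 of the other family members and 1 of the p38 and JNK cascade passed, in a setting where 9.37% of all genes did.

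**Figure D4:**
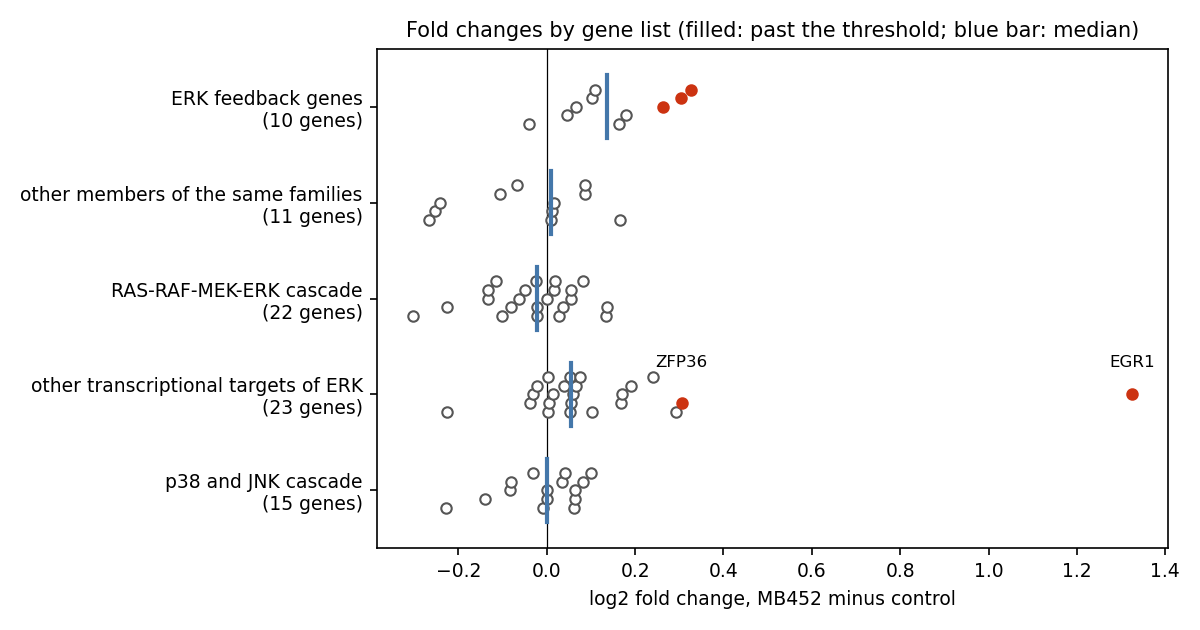
Log2 fold change, MB452 minus control (x axis), of every measured gene of 5 lists (y axis), with filled points for genes past the threshold and a blue bar at each median. The median of the 10 ERK feedback genes is 0.14 and those of the other lists lie between -0.022 and 0.055.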

How the data were processed

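The 4 slides of an Agilent whole human genome oligonucleotide array (1 per pool), each scanned at 2 voltages, gave 8 columns of log2 ratios of Cy5 pool over Cy3 reference. The deposited log2 values were made by the authors with limma, with no version stated; the log base is also unstated. All 8 columns were used and 0 were left out. Columns were median-centred and both scans of a slide then averaged. Of 44290 features, 42142 with values for every slide entered lmFit and eBayes of limma 3.58.1 (R 4.3.3), MB452 minus control, with Benjamini-Hochberg adjustment over the whole table. A gene is the mean of its features (17969 genes, of which 7373 had more than 1 feature). The platform annotation gave 1 symbol to 29033 features, several to 97 and none to 15160, and 28992 of the first were updated through Entrez identifiers to RefSeq GRCh38.p14. The fit was also run on simulated data with independent errors, which gives no rate of false calls for these slides.

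The genes and lists were chosen with earlier results of these data known, and the lists come from general knowledge. Named were the 10 genes, EGR1, up to 4 genes of each other list that passed the threshold, and MAPK3. The other family members not called are named only to define their list. Promoter windows are those of RefSeq. Alternatives were single scans, scaling, filters, fold minimum, blocks and leaving out each pool. With 2 pools a group, the number of slides limits the precision. The pool letters are shared labels: deviations of same-lettered pools from their group means correlated at r = -0.016.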

Additional observations from a re-analysis of the deposited data

How the results depend on the processing

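Of 16 alternatives, 7 changed the error, the features tested or the threshold and left the fold change of each of the 10 genes as it was. Under the other 9, 83 of 90 values kept their direction, 73 also their side of the threshold, and 7 reversed. The median log2 fold change of the 10 genes was 0.11 to 0.19 when each pool was left out in turn. With a fold minimum of 1.5 no feature and no gene of the 10 passed (0 and 0), against 0.039% of all genes. With no fold minimum SPRED2 passed too, for 4 genes, where 6.49% of all genes passed. Leaving out a pool changed which of the 10 genes passed, and not every difference was a rise. Without control pool A, feature 39394 of SPRED1 was lower, with a log2 fold change of -0.70. DUSP6 was -0.078 with the high scan alone and 0.28, past the threshold, with the low scan alone. SPRED1 was 0.023 with the high scan alone, 0.028 after quantile scaling, and -0.19 to 0.11 with a pool left out (0.11 without control B, 0.076 without MB452 A). With a pool left out DUSP1 was -0.054 to 0.41 and SPRY1 -0.012 to 0.10, both lowest without control A. Leaving out a pool took IER3 from 0.0097 to 0.12 and DUSP6 from 0.021 to 0.18. The causes were not tested.

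In the other lists, the ERK targets past the threshold numbered 4 with no fold minimum, 1 with a minimum of 1.5, and 1 to 3 with a pool left out. Leaving out a pool gave 0 to 3 for the cascade, 0 to 3 for the other family members, 0 to 1 for the p38 and JNK cascade, 0 to 4 for the intestinal markers and 0 to 2 for the markers of other cell types. With no fold minimum, where 6.49% of all genes passed, the p38 and JNK cascade had 1. The intestinal markers had 1 with the low scan alone and 1 (FABP1) with saturated values left out.

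With 1 pool left in a group, that pool is assumed to vary like the other group. Without control pool A, 1685 genes passed against 343, and 743 reached an adjusted p under 0.05 in limma. With the pool letter as a replicate block, 3 features and 3 genes of the 10 passed, as without it, and 446 of all genes did.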
